A study of Mus musculus with 4 samples.

Results

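The proteasome genes described here are the 48 protein-coding mouse genes named Psma, Psmb, Psmc, Psmd, Psme, Psmf or Psmg with a number and nothing after it, among 52636 genes in the tables. Members were chosen by symbol alone, and all 48 were found among 21896 protein-coding genes. The series is an RNA immunoprecipitation experiment on hippocampus, whose title gives its aim as the mRNAs bound by YTHDF2. Its 4 samples fall into 2 groups of 2, the input RNA of the lysate and the RNA recovered with an antibody to YTHDF2. All came from C57BL/6 mice labelled wild type at postnatal day 40, and no treatment is named. The values below are those of the 2 input libraries, and the immunoprecipitated libraries were not analysed here. With 1 group there was no test and no p-value.

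The proteasome is the protease of cytosol and nucleus that degrades proteins tagged with ubiquitin. Its barrel-shaped core particle is a stack of rings of alpha and beta subunits, and 3 of the beta subunits carry the active sites. The regulatory particle that caps the core has a base, whose ATPases unfold the substrate, and a lid, which removes ubiquitin. Other caps activate the core without ATP, and dedicated chaperones assemble the rings and the base. In neurons the proteasome turns over synaptic proteins and takes part in synaptic plasticity.

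The shallower input library held 2563069 counts and the deeper 3334451. The column names do not tie them to replicate numbers, so they are called by depth. The labels do not say whether they came from different animals, so their spread may be technical. Over 12504 genes with at least 10 counts in both, the chi-square per degree of freedom was 11.6, which is more than counting error. Levels are given as raw counts, as CPM (counts scaled to the library total) and, to set one gene against another, as the deposited FPKM, which divides by library size and by a length per gene. A limit of 3 counts, which a count of 0 allows, was 1.17 CPM in the shallower library and 0.8997 CPM in the deeper. Markers of the labelled tissue were present, with all 4 of 4 excitatory neuron markers and all 3 of 3 inhibitory neuron markers above 5 CPM.

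Proteasome mRNAs were detected at moderate levels. Of the 48 genes, 34 reached a mean of 5 CPM (70.8%), where 47.8% of all protein-coding genes did. Together the 48 genes took 2603 counts in the shallower and 3218 in the deeper library, a sum of 990.3 ± 35.7 CPM (mean ± SD, n = 2). The median FPKM over all 48 was 13.7 in the shallower and 11.7 in the deeper library. For scale, the median of the 10452 nuclear protein-coding genes at 5 CPM or more was 14.2 FPKM. The 34 members at that same minimum had a median of 18.1 FPKM, and 20 of them lay above 14.2 FPKM. The highest members were a scaffold of the base, Psmd1, a nuclear activator, Psme3, and a structural subunit of the beta ring, Psmb4. A total of 4 genes had no count in either library.

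**Figure D1:**
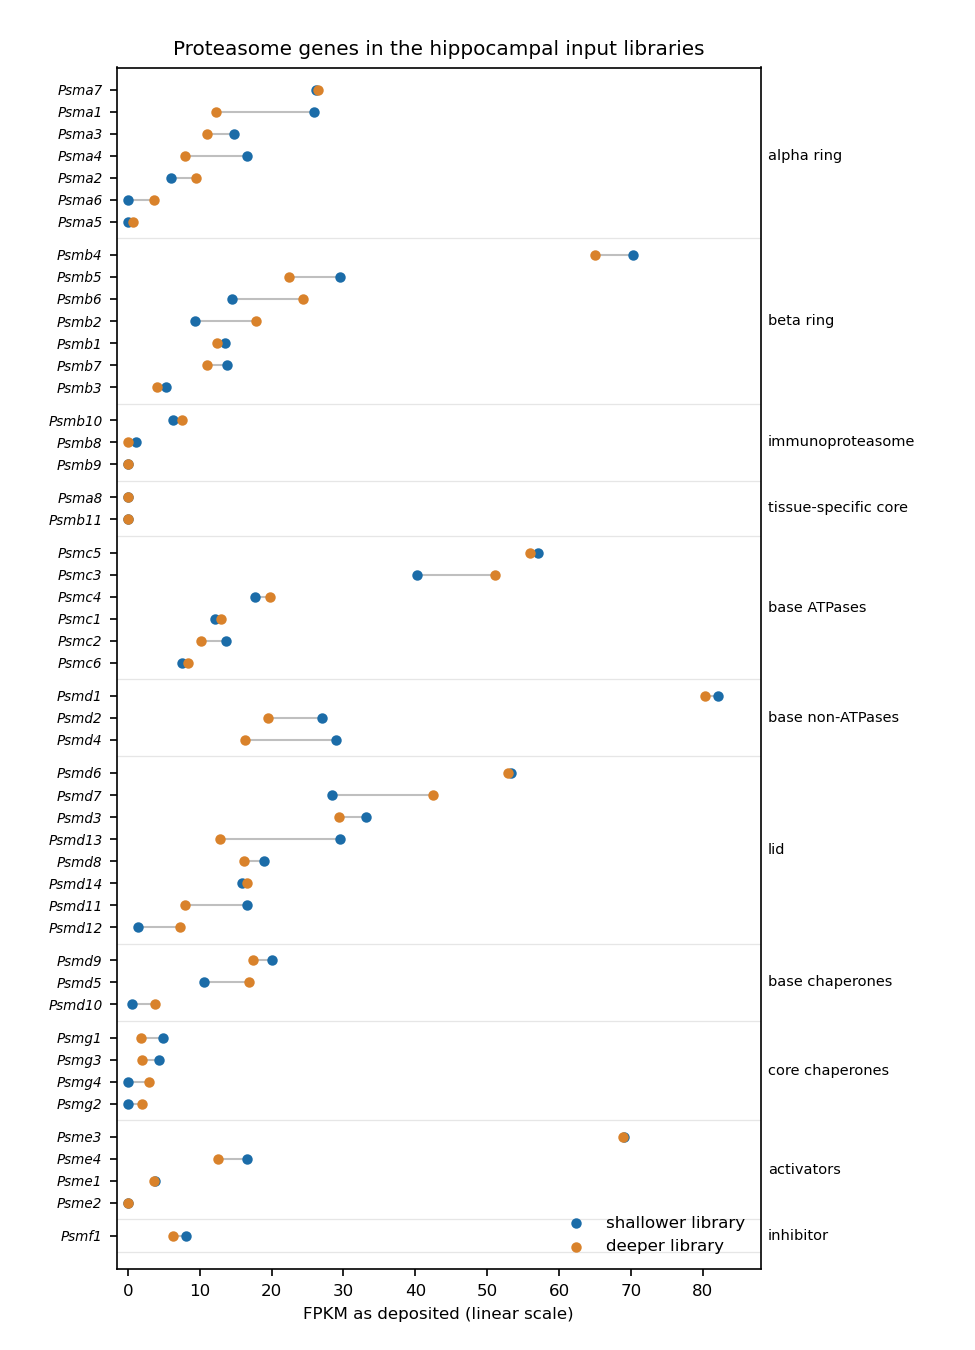
Deposited FPKM (linear axis) of each of the 48 proteasome genes in the shallower (blue) and deeper (orange) input library, grouped by place in the complex and ordered by mean within each group. Psmd1, Psme3 and Psmb4 lie above 60 in both libraries, and the immunoproteasome, tissue-specific and core chaperone genes all lie below 8.

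The alpha ring genes encode the outer subunits of the core, which form the gate through which substrates enter. Psma7 (chromosome 2, 180036374 to 180042433, minus strand, GRCm38) was highest, with 50 counts in the shallower and 66 in the deeper library, or 26.3 ± 0.270 FPKM (mean ± SD, n = 2, as for the values that follow). Psma1 had 62 and 38 counts and 19.1 ± 9.70 FPKM, so it did not differ from Psma7 beyond its own spread. Psma3 followed with 40 and 39 counts (12.9 ± 2.62 FPKM). Psma4 (12.3 ± 6.10 FPKM) and Psma2 (7.73 ± 2.39 FPKM) came next.

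The other 2 alpha genes were close to the detection limit. Psma6 had 0 and 10 counts. Psma5 (chromosome 3, 108256926 to 108279974, plus strand) had 0 and 2 counts, which is under the 3-count limit in both libraries, and its pseudogene copies, described after the subunits, had more. The ring's genes thus ran from 0.369 to 26.3 FPKM, although the ring they encode holds each of these subunits in equal number. The median over the 7 was 14.8 FPKM in the shallower and 9.42 in the deeper library.

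In the beta ring, Psmb4 was the highest gene in both libraries. It encodes a structural subunit and had 124 and 149 counts, or 70.3 and 64.9 FPKM (67.6 ± 3.80, n = 2), at chromosome 3, 94884093 to 94886961, minus strand. The genes of the 3 standard catalytic subunits were lower. Psmb5, the chymotrypsin-like subunit, had 66 and 65 counts (26.0 ± 5.08 FPKM). Psmb6, the caspase-like subunit, had 29 and 63 counts (19.4 ± 6.90 FPKM). Psmb7, the trypsin-like subunit, had 71 and 74 counts (12.4 ± 1.94 FPKM). Psmb5 and Psmb6 did not differ beyond their spread. Psmb5 was above Psmb7 in both libraries, at 29.6 against 13.8 FPKM in the shallower and 22.4 against 11.1 in the deeper.

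Of the other structural beta genes, Psmb2 had 17 and 42 counts (13.6 ± 5.98 FPKM) and Psmb1 had 36 and 43 (13.0 ± 0.785 FPKM). Psmb3 was lowest, with 13 counts in each library (4.72 ± 0.872 FPKM). The median over the 7 beta genes was 13.8 and 17.9 FPKM. The alpha median was above the beta median in the shallower library and below it in the deeper, so the rings were not ordered beyond the spread between libraries.

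The immunoproteasome is a form of the core in which interferon-induced catalytic subunits take the place of the standard ones, and it is known from immune cells. Its beta1i gene Psmb9 had 0 counts in both libraries, beside 29 and 63 for its standard partner Psmb6. At the limit of 3 counts, this allows up to 7.33% of the FPKM of Psmb6 in the shallower and 3.38% in the deeper library. The beta5i gene Psmb8 had 4 and 0 counts, beside 66 and 65 for Psmb5, which was 3.64% of the FPKM of Psmb5 in the shallower library and up to 2.77%, at the same limit, in the deeper. The beta2i gene Psmb10 (chromosome 8, 105935735 to 105938444, minus strand) was different. It had 13 and 20 counts, and its FPKM was 45.9% of that of Psmb7 in the shallower and 67.8% in the deeper library (56.9% ± 15.5, n = 2). Its 95% Poisson interval was 2.70 to 8.67 CPM in the shallower and 3.66 to 9.26 CPM in the deeper library, which lies above the 3-count limits of 1.17 and 0.8997 CPM that hold for Psmb9. These intervals cover counting error only. As a group, the 3 inducible genes had 12.8% and 13.0% of the summed FPKM of the 3 standard ones. Psmb10 gave 6.35 and 7.51 FPKM of this sum, and Psmb8 gave 1.08 and 0. With the counts of sequence copies of Psmb5 and Psmb6 added, the share was 6.70%.

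Forms of the core known from single tissues were not detected. Psma8, the testis counterpart of Psma7, and Psmb11, the beta5 subunit of thymic epithelium, had 0 counts in both libraries. For Psmb11 this allows up to 1.64% and 1.67% of the FPKM of Psmb5, and for Psma8 up to 4.27% and 3.23% of that of Psma7. In male germ cell markers 3 of 4 had 0 counts in both libraries, with a sum of 0 to 1.17 CPM, and among thymic epithelium markers Foxn1 and Prss16 were at 0. Ccl25, the remaining thymic marker, had 49 and 37 counts.

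Cells that could carry the immunoproteasome were represented unequally. Of 5 lymphocyte markers 4 had 0 counts (Cd3e, Cd3g, Cd8a and Ms4a1), and the sum was 0.600 to 1.17 CPM. Of 9 microglia markers 7 reached 5 CPM, with a sum of 214.4 to 222.4 CPM, while Aif1 was at 0. The part of these cells in the values of Psmb8, Psmb9 and Psmb10 was not tested. In a bulk lysate, fewer cells of a type and less RNA per cell cannot be told apart.

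**Figure D2:**
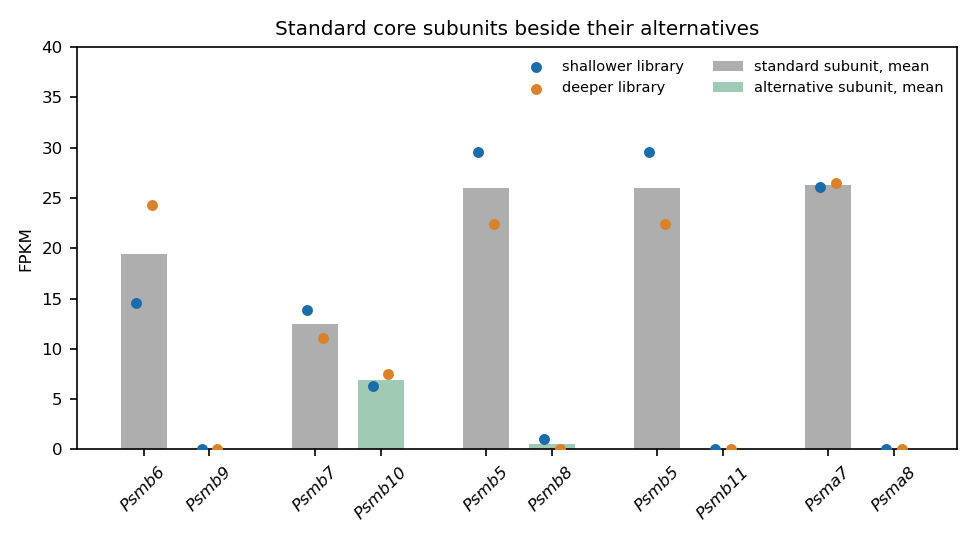
FPKM (linear axis from 0) of standard core subunits (grey bars, mean of 2 libraries) and their inducible, thymic or testis alternatives (green bars), with points for the shallower (blue) and deeper (orange) library. Psmb10 is the alternative subunit with a count in both libraries, and Psmb9, Psmb11 and Psma8 are at 0.

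The 6 ATPases of the base, Psmc1 to Psmc6, form the ring that unfolds substrates and feeds them into the core. All 6 reached 5 CPM. Psmc5 (chromosome 11, 106256154 to 106263120, plus strand) led with 198 and 253 counts (56.5 ± 0.718 FPKM). Psmc3 had 97 and 160 counts (45.7 ± 7.63 FPKM). Psmc4 had 50 and 73 counts (18.8 ± 1.53 FPKM). These 3 stood in the same order in both libraries. Psmc1 (12.6 ± 0.651 FPKM), Psmc2 (11.9 ± 2.48) and Psmc6 (7.96 ± 0.674) were lower, and the highest ATPase gene was 7.10 times the lowest. The class median was 15.7 FPKM in the shallower and 16.4 in the deeper library.

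The other base genes encode scaffolds and ubiquitin receptors. Psmd1, the scaffold Rpn2 (chromosome 1, 86064387 to 86139151, plus strand), had 293 and 373 counts and the highest FPKM of all 48 genes, 82.1 and 80.3 (81.2 ± 1.25, n = 2). It stood at percentile 92.0 of nuclear protein-coding genes at 5 CPM or more. Psmd2, the scaffold Rpn1, had 102 and 96 counts (23.2 ± 5.28 FPKM). Psmd4, the ubiquitin receptor Rpn10, had 93 and 68 counts (22.6 ± 8.97 FPKM). These last genes did not differ beyond their spread. The length behind the FPKM of Psmd1 was 1393 bases, while its longest annotated transcript has 3112. With the longest transcript as divisor, Psmd1 had 36.3 ± 0.558 FPKM, below Psmc5 (54.9 ± 0.698) and Psmb4 (39.3 ± 2.21).

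All 8 lid genes reached 5 CPM. Psmd6, the subunit Rpn7, was highest with 114 and 147 counts (53.1 ± 0.333 FPKM). Psmd7, the partner of the lid deubiquitinase, had 89 and 173 counts (35.5 ± 9.94 FPKM). Psmd3, the subunit Rpn3, had 158 and 182 counts (31.2 ± 2.68 FPKM). Psmd6 was above both in each library, while Psmd7 and Psmd3 changed places between the libraries. Psmd14, the deubiquitinase Rpn11 itself, had 28 and 38 counts (16.2 ± 0.484 FPKM), close to Psmd8 (17.6 ± 2.00). Psmd13 had 76 and 43 counts (21.2 ± 11.8 FPKM). Psmd11 had 48 and 30 counts (12.3 ± 6.09 FPKM). Psmd12, the subunit Rpn5, was lowest and least even, with 6 and 42 counts (4.33 ± 4.21 FPKM).

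Taken as a whole, the regulatory particle had a higher median than the core, but not class by class. The median over its 17 genes was 26.98 FPKM in the shallower and 16.5 in the deeper library. The median over the 14 standard core genes was 14.2 and 11.7 FPKM, which is 0.526 and 0.704 times as much. The direction was the same in both libraries and also with the longest transcript as divisor (0.658 and 0.766). That divisor lowered the class medians themselves, to 5.32 FPKM for the alpha ring, 12.2 for the beta ring, 10.01 for the ATPases, 13.4 for the other base genes and 10.7 for the lid. With it the mean of the beta ring lay above those of the ATPases and the lid. The SDs were 3.49, 0.491 and 3.24 FPKM in that order, so these classes were not ordered beyond the spread between libraries. When counts of sequence copies of these genes, described next, were added to the genes, the ratio moved to 0.995 and 0.886. Over the genes without a copy alone (6 of the core and 13 of the regulatory particle) it was 0.686 and 0.758.

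Many core genes have processed pseudogenes or other copies elsewhere in the genome. A copy is here an annotated processed pseudogene, or the gene Psme2b, with at least 10% of its 31-base stretches identical to the transcripts of a proteasome gene. There were 21 such copies of 14 genes, 20 of them on another chromosome than the gene, and 18 had a count. Over these 14 genes the copies held 1160 counts in the shallower and 1272 in the deeper library, while the genes themselves held 460 and 521. The copies therefore had 2.52 and 2.44 times the counts of the genes, and for 10 of the 14 they held more than the gene in both libraries. Of the 14 genes, 8 belong to the rings of the standard core.

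Psma5 is the clearest case. It had 0 and 2 counts, while its copies Gm8394 on chromosome 10 (83 and 44 counts) and Gm12989 on chromosome 4 (36 and 25) together had 119 and 69. Psme2, a subunit of the interferon-induced activator, had 0 counts in both libraries, while Psme2b on chromosome 11 had 16 in each. Psmb5 had 66 and 65 counts, and its copy Gm3375 on chromosome 7 had 70 and 99. These are the genes with a copy that holds at least 30% of their 31-base stretches, and their sequence is shown because reads from gene and copy can be alike. Each line gives 60 coding bases across an exon junction of the spliced gene transcript, or the matching bases of the copy, 5′ to 3′ on the transcript strand. Lower case marks the upstream exon and capitals the downstream exon.
Psma5: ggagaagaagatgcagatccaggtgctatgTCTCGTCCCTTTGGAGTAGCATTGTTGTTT
Gm8394: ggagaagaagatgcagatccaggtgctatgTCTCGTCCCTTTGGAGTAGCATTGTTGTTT
Gm12989: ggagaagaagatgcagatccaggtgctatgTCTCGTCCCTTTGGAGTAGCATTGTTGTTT
Psmb5: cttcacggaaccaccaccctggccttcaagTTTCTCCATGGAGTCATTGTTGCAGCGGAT
Gm3375: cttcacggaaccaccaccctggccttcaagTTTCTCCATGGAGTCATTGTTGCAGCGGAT
Psme2: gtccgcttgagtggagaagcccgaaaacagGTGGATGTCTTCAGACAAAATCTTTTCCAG
Psme2b: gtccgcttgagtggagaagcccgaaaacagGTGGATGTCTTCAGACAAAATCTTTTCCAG

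In every one of these windows the copy had 0 mismatches to the gene. The sequences are from the GENCODE M21 transcripts on GRCm38. The Psma5 window lies at chr3:108267871-108267900 and chr3:108268033-108268062 on the plus strand, with 132 intron bases between. Its copies lie unbroken at chr10:85313938-85313997 on the plus strand and chr4:135716165-135716224 on the minus strand. The Psmb5 window lies at chr14:54617794-54617823 and chr14:54616792-54616821 on the minus strand, with 972 intron bases between, and that of Gm3375 at chr7:3181261-3181320 on the plus strand. The Psme2 window lies at chr14:55590842-55590871 and chr14:55590498-55590527 on the minus strand, and that of Psme2b at chr11:48946041-48946100 on the minus strand. The window shown for each gene is the junction with the fewest mismatches. Over all coding junctions, 4 of 7 windows of Psma5 were identical in Gm8394 and 3 of 7 in Gm12989. For Psmb5 and Gm3375 it was 2 of 2, and for Psme2 and Psme2b 7 of 10. Over all 21 copies, 41 of 170 windows were identical and 100 had at most 2 mismatches.

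Copies also held many counts of other subunits. Gm5422 on chromosome 10, a copy of the scaffold gene Psmd2, had 422 and 488 counts, against 102 and 96 for Psmd2 itself. Gm9575, a copy of the ATPase gene Psmc1, had 134 and 157 counts, against 25 and 35. Gm13835 on chromosome 6, all of whose 31-base stretches occur in Psma3, had 104 and 137 counts, against 40 and 39 for Psma3. How reads divide between gene and copy is uncertain. With the copies added, class medians over both libraries were 26.2 FPKM in place of 12.1 for the alpha ring, 28.9 in place of 15.8 for the beta ring, 32.2 in place of 16.1 for the ATPases, 81.2 in place of 24.2 for the base genes other than ATPases and 25.9 in place of 20.03 for the lid. The class of other base genes has 3 members, and its 81.2 FPKM is the unchanged value of Psmd1, which has no copy. Psmd2 passed Psmd1 through the counts of Gm5422, which is annotated as a transcribed processed pseudogene. With the copies added, the lid lay below the beta ring. Its 25.9 FPKM was close to the 26.2 of the alpha ring, and no order is read between them. Psma6, Psmd12 and Psmd10 were low without any such copy. Among core and regulatory particle genes, the 12 with a copy had a median of 14.7 and 11.8 FPKM and the 19 without one 26.1 and 17.9. The part of the copies in the low gene counts was not tested.

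**Figure D3:**
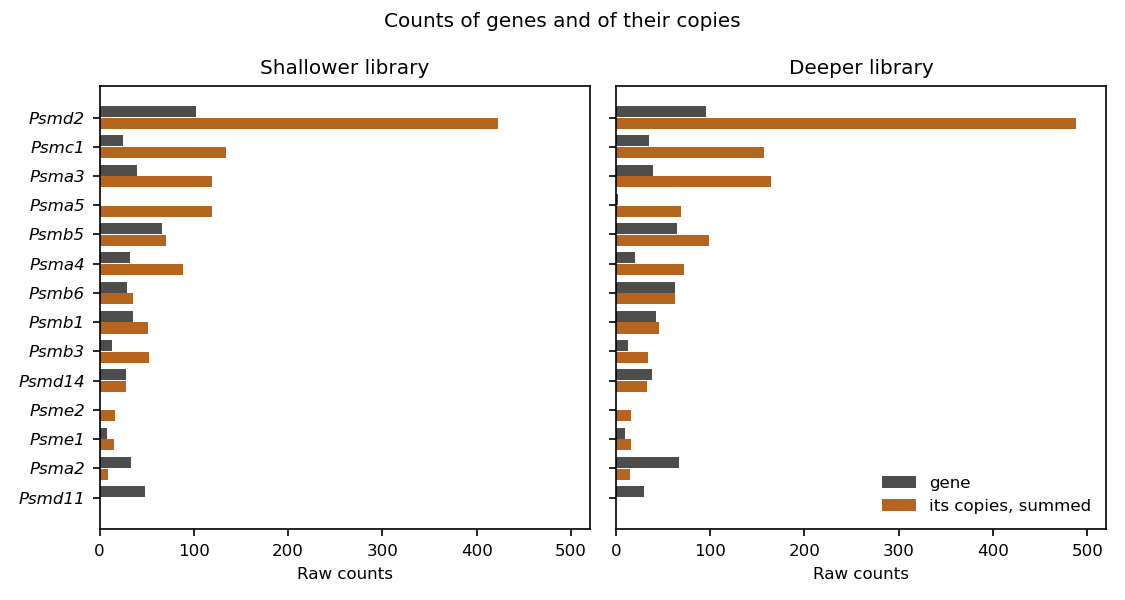
Raw counts (linear axis from 0) of the 14 proteasome genes that have a copy (dark bars) and of their copies summed (brown bars), in the shallower (left) and deeper (right) library. For 10 genes, among them Psmd2, Psmc1, Psma3 and Psma5, the copies hold more counts than the gene in both libraries.

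Genes of the assembly chaperones were expressed at unequal levels. Psmd9 had 69 and 78 counts (18.7 ± 1.86 FPKM), Psmd5 had 54 and 111 (13.7 ± 4.37), and both help to build the base. Psmd10, which encodes the base chaperone gankyrin, had 2 and 18 counts. The 4 genes of the core chaperones all had a mean under 5 CPM, although Psmg3 had 5.85 CPM in the shallower library. Psmg1 had 10 and 5 counts, Psmg3 had 15 and 9, Psmg2 had 0 and 7, and Psmg4 had 0 and 5. Their median was 2.19 and 2.00 FPKM, below that of the rings they assemble (14.2 and 11.7) in both libraries. Pomp, a core maturation factor outside the name rule, had 46 and 71 counts (17.3 ± 2.09 FPKM) and was above all 4.

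Among the ATP-independent activators, 1 gene dominated. Psme3 (chromosome 11, 101316213 to 101323537, plus strand), the gene of the nuclear PA28 gamma, had 188 and 244 counts (68.9 ± 0.116 FPKM), at percentile 90.2 of nuclear protein-coding genes at 5 CPM or more. Psme4, the gene of the large nuclear activator PA200, had 61 and 60 counts (14.6 ± 2.86 FPKM). Its length divisor was 1433 bases while the longest transcript has 6491. With that divisor it had 3.22 ± 0.632 FPKM, against 27.5 for Psme3. The partners of the interferon-induced PA28 were low. Psme1 had 8 and 10 counts (3.69 ± 0.104 FPKM) and Psme2 had none. With Psme2b counted for Psme2 and Gm7776 (15 and 16 counts) for Psme1, the sums remained below those of Psme3. Psmf1, the gene of the regulator PI31, had 51 and 52 counts (7.19 ± 1.23 FPKM).

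At 5 CPM or more, most proteasome genes lay within 2-fold between the libraries. A ratio is the log2 of CPM + 0.5 in the deeper library less that in the shallower, after scaling by the trimmed mean of M values (TMM). The exact binomial intervals (95%) use the counts without the added 0.5 and cover counting error only. Over the 34 genes at 5 CPM or more the median ratio was 0.07, beside 0.00 over the 10452 nuclear protein-coding genes at that level, with 19 genes above 0 and 15 below. At least 2-fold apart were 3 of 34 genes, where 9.53% of all genes at 5 CPM were. Higher in the deeper library were Psmd12 (2.33, interval 1.33 to 4.10) and Psmb2 (1.01, interval 0.23 to 1.98), where 3.64% of all genes were. Psmd13 was higher in the shallower (-1.03, interval -1.63 to -0.50), where 5.88% of all genes were. Some genes within 2-fold also had intervals that left out 0, in both directions. Examples are Psmd7 (0.72, interval 0.35 to 1.11) and Psma1 (-0.91, interval -1.56 to -0.34). Psmb2 was no longer 2-fold apart when 1 was added to CPM in place of 0.5. Without the TMM factors 4 of 34 genes were 2-fold apart, beside 10.7% of all genes. Of these, 1 was higher in the deeper library (Psmd12), beside 2.66% of all genes. The other 3 were higher in the shallower (Psma1 at -1.05, Psmd11 at -1.02 and Psmd13 at -1.17), beside 8% of all genes, and Psmb2 was at 0.88.

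At a mean of 20 CPM or more, 1 of 19 members (Psmd13, higher in the shallower) was 2-fold apart, beside 3.93% of all 6915 genes. By direction, 1.98% of all genes were higher in the deeper and 1.95% in the shallower library. The members' shares were close to the background. Without the TMM factors the median ratio was -0.07 for the members and -0.14 for nuclear protein-coding genes at 5 CPM, so no direction is read from it. The genes at 50 CPM or more (Psmd1, Psmc5, Psme3 and Psmd3) lay between -0.03 and 0.14. Psmd12 and Psmd13 belong to the same lid but lay on opposite sides.

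**Figure D4:**
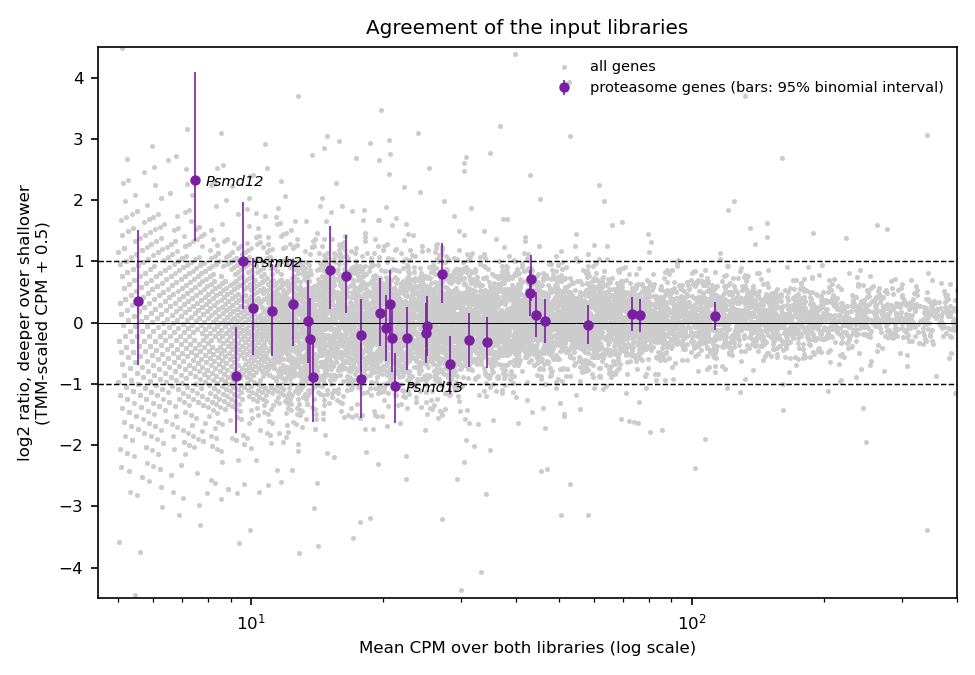
Log2 ratio of the deeper over the shallower library (TMM-scaled CPM + 0.5) against mean CPM (log scale) for all genes at 5 CPM or more (grey) and the 34 proteasome genes among them (purple, bars are 95% binomial intervals of counting error). Dashed lines mark 2-fold, the 3 genes beyond them are named, and 327 of 12218 genes above 400 CPM or beyond a ratio of 4.5 are outside the panel.

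Other genes of the pathway gave context. Of 11 matched subunits and partners outside the name rule, 10 reached 5 CPM, where 47.8% of all protein-coding genes did. Ube3c (305 and 414 counts, 43.6 ± 1.31 FPKM), a ubiquitin ligase that acts at the proteasome, was highest. The proteasome-bound deubiquitinase gene Usp14 had 49 and 190 counts (30.5 ± 21.5 FPKM), the one gene of this list at 5 CPM or more that was at least 2-fold apart (1.69, interval 1.26 to 2.20). Akirin2, a factor of proteasome import into the nucleus, had 30.5 ± 1.01 FPKM, and the adaptor gene Ecpas had 18.7 ± 3.36. The ubiquitin receptor gene Adrm1 was low, with 15 and 4 counts. Of 8 genes listed as transcriptional regulators or their partners, all reached 5 CPM. Nfe2l1, which activates proteasome genes when proteasome function falls, had 864 and 994 counts (129 ± 11.2 FPKM). It was higher than every one of the 48 proteasome genes in both libraries. Stat3 (18.4 ± 2.12 FPKM), Keap1 (14.9 ± 0.247) and Foxo4 (11.8 ± 1.01) followed.

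Ubb, a polyubiquitin gene, had 1739 and 2083 counts (545 ± 31.8 FPKM), more than any of the 48 proteasome genes. Rps27a, which encodes a fusion of ubiquitin and a ribosomal protein, had 5 and 3 counts. Ubiquitin genes hold near-identical repeats, so how reads divide among them is uncertain. Among 15 genes of ubiquitin activation and substrate delivery, 14 reached 5 CPM. The autophagy receptor gene Sqstm1 (205 ± 36.4 FPKM), the activating enzyme gene Uba1 (89.3 ± 21.6) and the shuttle genes Ubqln2 (89.04 ± 0.524) and Ubqln4 (75.2 ± 0.773) led. In this list Uba6 (12 and 32 counts) and Zfand2b (27 and 10) were at least 2-fold apart.

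Genes of antigen processing and the interferon response, the setting in which the immunoproteasome is induced, were also counted. Of 17 listed, 7 reached 5 CPM, where 47.8% of all protein-coding genes did. The chaperone genes Calr (137 ± 31.9 FPKM) and Pdia3 (39.3 ± 19.7) were highest, and they also act outside antigen presentation. B2m (20.1 ± 0.187 FPKM) and Tapbp (18.998 ± 0.792) followed. The peptide transporter gene Tap1, which lies beside Psmb9, had 3 and 6 counts, and Isg15 had 0 in both. H2-K1 (8 and 62 counts) was at least 2-fold apart. H2-K1 has near-identical paralogs, so its counts are uncertain.

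Some proteasome genes lie side by side. Psmb5 and Psmb11 are 3410 bases apart on chromosome 14, Psme1 and Psme2 5911 bases apart on the same chromosome, and Psmb8 and Psmb9 9956 bases apart on chromosome 17. Neighbours did not share a level in the first pairs. Psmb5 had 66 and 65 beside 0 for Psmb11, and Psme1 had 8 and 10 beside 0 for Psme2. The counts of Psme1 are low, and copies of both Psme1 (Gm7776, 15 and 16) and Psme2 (Psme2b, 16 in each) held counts. The difference between Psme1 and Psme2 is therefore uncertain. Psmb8 and Psmb9 were both near 0. Exons of 13 members overlap those of another annotated gene, and for 8 of them that gene had counts. They include Psmc3 (Slc39a13, 58 and 36 counts), Psmb7 (Nek6, 93 and 105) and Psmd13 (Sirt3, 121 and 103), each on the opposite strand. Whether the counting used strand is not given in the sources used here, so these counts are uncertain.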

How the data were processed

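For the input libraries the authors deposited whole-number gene counts and FPKM. BWA 0.7.12, MACS2 2.1.0, HOMER and GRCm38 are named per the submitters' processing notes, with no role. The read counter, its strand and multi-mapping settings and its treatment of reads across exon junctions were not given in the sources used here. Deposited FPKM equals count over library total and 1 whole length per gene, and for 36 of 44 members with a count that length was within 1 base of the mean GENCODE M21 transcript length. Symbols, types and positions came from GENCODE M21 (GRCm38), which held 52489 of the gene IDs.

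CPM used the total count. TMM factors (1.05 and 0.951, edgeR 4.0.16) were set over 12218 genes at 5 CPM or more, with DESeq2 1.42.0 size factors as an alternative. The call limit was 2-fold. The computation was tested on simulated counts with counting error only and with changes larger than the call limit. Such counts lack the further spread between these libraries, so they do not test how reliable the calls are. Sharing was measured on all 31-mers of GENCODE M21 transcripts, both strands. Intervals cover counting error only. The members, classes and gene lists were chosen with earlier results of these data known. Of the listed symbols, Paaf1 and Psme3ip1 matched no gene name used here. Values are printed for all activators, chaperones and alternative subunits, for the 3 highest and the lowest gene of each other class, for genes 2-fold apart, and for the 4 highest of each pathway list. Genes named beyond these, and the copies, were chosen after their values were seen. Some genes of the pathway lists are not reported here.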

Additional observations from a re-analysis of the deposited data

How the results depend on the processing

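The sum over the 48 genes (990.3 CPM) was 1344 CPM with the nuclear protein-coding counts as total, 1407 with the copies added, and 799.6 over genes that share under 10% of their 31-mers. Class medians of FPKM were lower with the longest transcript as divisor, at 5.32 (alpha ring), 12.2 (beta ring), 10.01 (base ATPases), 13.4 (other base genes), 10.7 (lid) and 2.38 (activators). With the copies added they were 26.2, 28.9, 32.2, 81.2, 25.9 and 12.3 in the same order, and the activators at 5 CPM or more had 41.8. The 81.2 is the value of Psmd1, which has no copy. The inducible catalytic genes had 12.9% of the standard ones, 9.35% with the longest transcript and 6.70% with the copies added. The median ratio between libraries (0.07) was -0.072 without TMM factors, -0.031 at 20 CPM or more and 0.15 with the transcript length trend taken out. Of genes 2-fold apart, 3 at 5 CPM became 1 at 20 CPM and 0 at 50 CPM, and 4 without TMM factors, when 2 higher and 1 lower in the deeper library became 1 and 3. The copies added to class medians, and the restriction to genes with low sharing, were chosen after seeing the data. With each library alone the sum ran from 965 to 1016 CPM, and with 2 libraries such values always lie within 1 SD of the mean. The other settings moved no value beyond its spread. No paired analysis was possible because the columns carry no replicate number of the labels and hold 1 group. Under about 10 counts, as for Psma6, Psmb8, Psme1 and the core chaperones, depth limits what can be said.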

Other observations

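The promoters of proteasome genes were searched for short motifs, as a description of the sequences only. RefSeq windows (GRCm38.p6, 250 bases before to 50 after the start) matched 40 of the 48 genes, and 17492 protein-coding genes served as the comparison. Both strands were searched for 11 motifs. The ETS-type letters CCGGAAGT were in 9 of 40 promoters (22.5%, against 5.69% of all), among them Psma6, Psmc1, Psmc2, Psmd6, Psmd12, Psmd13 and Psme3. The palindrome of nuclear respiratory factor 1 (GCGCA, any base, GCGC) was in 7 (17.5%, against 7.17%), among them Psma2, Psma3, Psma4, Psmc4 and Psmc5. The interferon-type letters (GAAA, any 2 bases, GAAA) were in 5 (12.5%, against 3.94%), among them Psme1 but not Psmb8 or Psmb9. No statement is made for Psmb10, which may be among the 8 genes without a promoter window. The antioxidant response core TGACNNNGC was in 6 (15%, against 14.8%), including Psmb5 and Psmb6, and TGAGNNNGC in 12 (30%, against 20.5%). The remaining shares were 35% against 42.3% for CCAAT, 10% against 14.8% for TATAAA, 7.5% against 8.92% for TTCNNNGAA, 20% against 13.6% for GGAAGTG, 2.5% against 1.41% for a YY1 site and 0 against 0.269% for GGTGGCAAA. GGAAGTG overlaps CCGGAAGT in part. No test was made, and a match does not show binding.

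Across the 34 proteasome genes at 5 CPM or more, mean FPKM went with transcript GC content at Spearman's rho = 0.462. The log2 ratio between libraries went with the share of 31-mers found in other genes at rho = -0.366 and with GC content at 0.08, where over 10446 nuclear protein-coding genes the latter was -0.311. These genes share libraries and are not independent replicates, so the values are descriptions.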
